A study of Mus musculus with 9 samples.

Results

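Complement and coagulation factors are the plasma proteins of 2 enzyme cascades, and 42 of their genes were listed by symbol, 23 for complement and 19 for coagulation. A gene was measured by the probes that carried its symbol alone, with several probes of a gene averaged. In this way 37 of the 42 genes were found among the 15096 genes named by a single symbol on the array, 19 of complement and 18 of coagulation. C1s, Cfd, C3, C8a and F13a1 were not found under these symbols and were not analysed here. Vwf had 2 probes and every other gene had 1.

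Complement is a chain of proteases that tags microbes and damaged cells, and it is started by antibody through C1q (the classical pathway), by sugars through mannose-binding lectins (the lectin pathway) or by a standing low activity (the alternative pathway). Its later components build a pore in membranes, and its small fragments call in leukocytes through receptors. Coagulation runs from tissue factor and the contact factors through vitamin K dependent proteases to thrombin, which turns fibrinogen into fibrin, and plasmin dissolves the clot. Hepatocytes secrete most of these proteins, whereas C1q comes mainly from macrophages and microglia, von Willebrand factor from endothelium, and tissue factor is a membrane protein of cells outside the bloodstream.

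RNA of male SJL/J and C57BL/6J mice, both inbred strains aged 8 weeks, was compared in brain, kidney and liver on 9 spotted arrays with 2 channels, 3 arrays per tissue. Each array set a pool of 5 SJL/J mice (Alexa Fluor 647) against a pool of 5 C57BL/6J mice (Alexa Fluor 555), each labelling taking 20 ug of pooled RNA. The mice carried no treatment or transgene in the labels. All 3 arrays of 1 tissue repeated the same pair of pools, with the dyes never exchanged, so the errors and p-values below cover the spread between arrays and not between mice, and a dye effect particular to a gene cannot be told apart from a strain effect within a tissue. In pooled bulk RNA fewer cells of a type and less RNA per cell cannot be told apart either.

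Values are log2 ratios, SJL/J over C57BL/6J, in which 1 unit is a 2-fold difference, and no level of a gene in either strain was analysed here. Intensities were not used and no dim probe was left out. Whether a gene was read above background in a given tissue is therefore not known. This limit also holds for the factors made mainly by hepatocytes in brain and kidney. The base was taken as log2 and the direction is the likely one, from the order of strains in the titles, the dyes and the usual convention of red over green. Nnt, a mitochondrial gene partly deleted in C57BL/6J, was above 0 on 9 of 9 arrays (0.15 to 1.06). On the kidney and liver arrays the tissue given for channel 1 is brain; their titles, which name kidney and liver, were followed. Since the values are ratios, markers of a tissue could not check its label.

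Before the results, 2 features of the arrays bear on them. The array labelled brain replicate 3 correlated at 0.52 to 0.57 with the other brain arrays over all probes but at 0.58 to 0.63 with the kidney arrays, whereas the other brain arrays correlated at 0.76 with each other. Brain counts, and the brain calls of single genes, are therefore also given without it. Probes whose number is a multiple of 8 read low: the 1689 genes measured only by such probes had medians of -0.18, -0.39 and -0.18 in brain, kidney and liver, against 0.03, 0.06 and 0.00 for the other named genes. Of the factors, 8 were measured there, namely Mbl1, C8b, C9, C3ar1 and C5ar1 of complement and F9, F3 and F5 of coagulation. Over the 14692 single-symbol probes away from multiples of 8, brain replicate 3 correlated at 0.21 to 0.31 with the other brain arrays. With the kidney arrays it correlated at 0.32 to 0.38 there. The other brain arrays correlated there at 0.70 with each other and at 0.12 to 0.26 with the kidney arrays. As a check on position, the median of each line of 24 consecutive probe numbers was also removed from each array. The median of each column across those lines was then removed too. This takes out a shift shared by a line or column, and not a low tail of single probes.

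A gene was called where limma's adjusted p was under 0.05, with Benjamini-Hochberg adjustment over all 21262 genes and unnamed probes. The spread behind each p-value was pooled over all 9 arrays, whereas each SD is that of the 3 arrays of a tissue. Where 1 array is left out below, it is an array of the tissue tested or of the tissues compared. In brain 6 of 19 complement genes were called, 3 higher and 3 lower in SJL/J, and 3 of 18 coagulation genes, 1 higher and 2 lower, against 17.4% of all named genes (7.72% higher and 9.7% lower). In kidney 9 complement genes were called, 6 higher and 3 lower, and 8 coagulation genes, 4 higher and 4 lower, against 27.4% of named genes (13.4% higher and 13.9% lower). In liver 8 complement genes were called, 3 higher and 5 lower, and 9 coagulation genes, 4 higher and 5 lower, against 24% of named genes (9.98% higher and 14.1% lower). As shares of the measured genes these counts are 31.6%, 47.4% and 42.1% for complement and 16.7%, 44.4% and 50% for coagulation in brain, kidney and liver. The brain share of coagulation is near that of all named genes and is no result about these factors.

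The calls went both ways in each tissue. Complement had median log2 ratios of 0.05, 0.29 and 0.00 in brain, kidney and liver, and coagulation -0.02, 0.08 and -0.05, against 0.01, 0.03 and -0.02 for all named genes. Across tissues, 28 of the 37 genes were called at least once and 9 never, against 50.7% of named genes called at least once. Calls in all 3 tissues were made for 3 of the 37, against 3.44% of named genes: C4b was higher in each, F3 was lower in each, and Masp2 was higher in brain and kidney but lower in liver. Without brain replicate 3 the brain counts were 5 for complement (3 higher, 2 lower) and 3 for coagulation (0 higher, 3 lower), against 19.8% of named genes (9.21% higher and 10.6% lower). The calls of C4b, Masp2, C1qa and Fga were then lost, C1qb (0.49, adjusted p = 0.0107, limma) and Masp1 (0.46, adjusted p = 0.0150) were called higher and F9 (-0.73, adjusted p = 0.0305) lower, and Cfi, C3ar1, C5ar1, F11 and F3 kept theirs. Leaving out 1 array of the tissue also moved counts by over 1.5 times in 4 lists: complement in brain fell to 3 without replicate 1 or 2, complement in liver to 2, 3 and 5 without replicate 1, 2 and 3, and coagulation to 3 in kidney and 5 in liver without replicate 3. Of the lower calls, 3 of 5 in brain, 6 of 7 in kidney and 3 of 10 in liver came from probes at multiples of 8, where 29%, 53% and 31.1% of the 1689 genes were called lower. Fitted on the brain arrays alone, only C3ar1 (adjusted p = 0.00582, limma) and F3 (adjusted p = 0.0387) kept their brain calls. Fits on 1 tissue alone also ended the calls of F8 in kidney and of Klkb1 and C9 in liver.

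**Figure D1:**
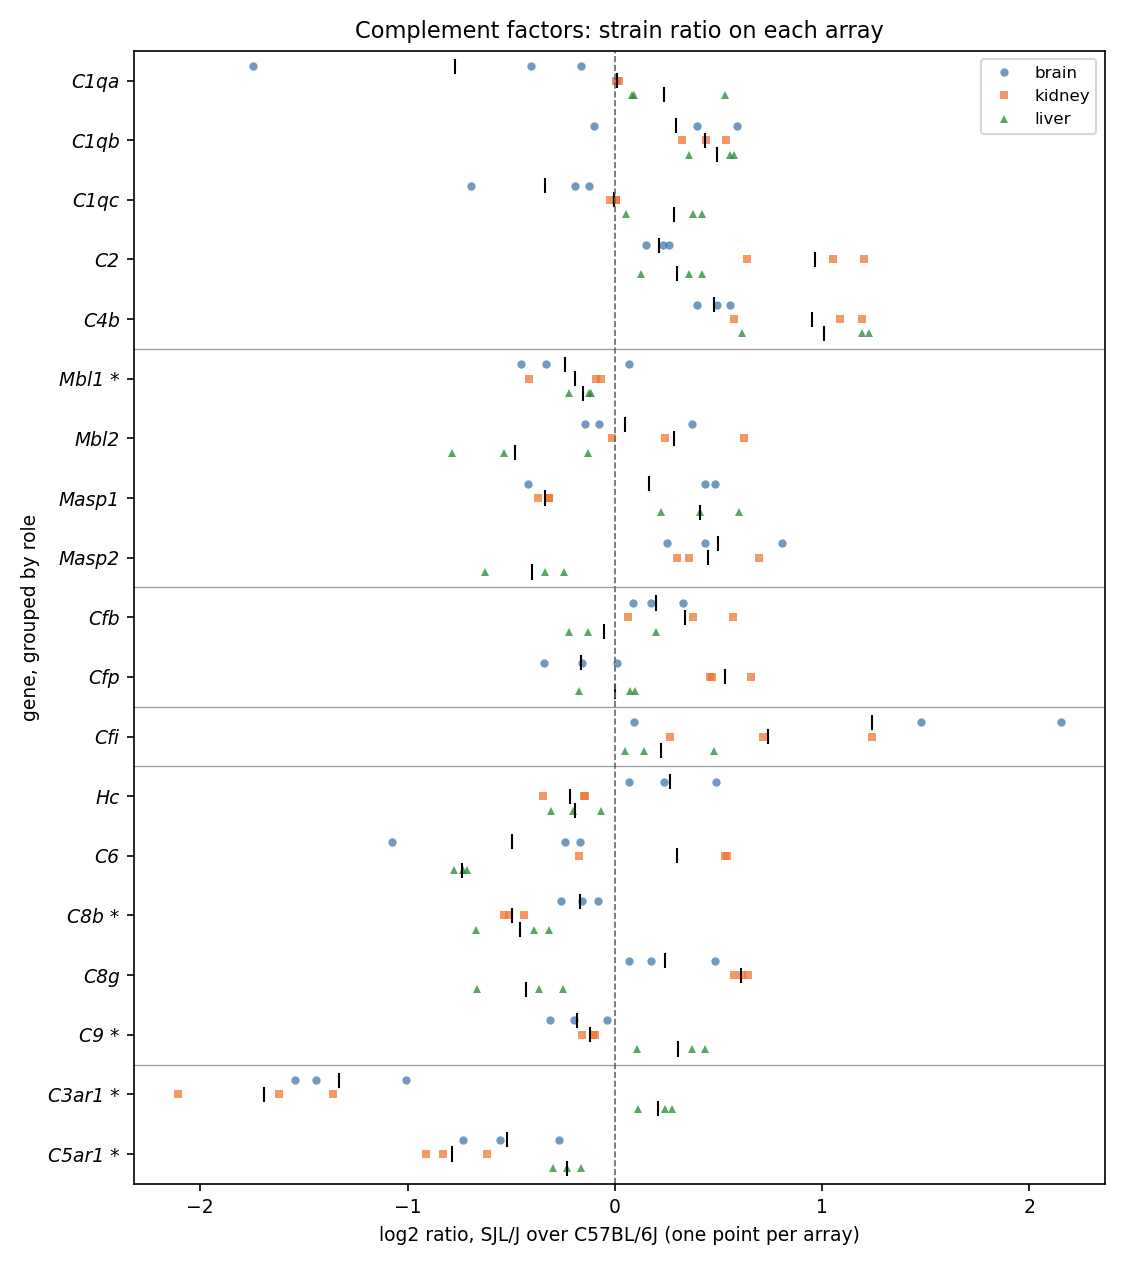
Log2 ratio, SJL/J over C57BL/6J, of the 19 measured complement genes on each of the 9 arrays, with 1 row per gene, grouped by role; circles, squares and triangles are single brain, kidney and liver arrays, black ticks the mean of 3, and an asterisk marks a probe whose number is a multiple of 8. C4b lies right of 0 on every array, and C3ar1 lies left of 0 in brain and kidney but right of it on the 3 liver arrays.

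At the start of the classical pathway C4b was higher in SJL/J in all 3 tissues. C4b, the fourth component, which C1 cleaves to start the C3 convertase, read 0.55, 0.49 and 0.40 on the brain arrays, 0.58, 1.19 and 1.09 on the kidney arrays and 1.19, 1.23 and 0.61 on the liver arrays. All 9 values were above 0. The means were 0.48 ± 0.08 in brain (SD, n = 3, adjusted p = 0.0393, limma), 0.95 ± 0.33 in kidney (adjusted p = 0.00104) and 1.01 ± 0.34 in liver (adjusted p = 0.000821), the last being a 2.01-fold higher level in SJL/J. C4b has a near-identical copy, C4a, so which of them the probe read is uncertain. The kidney and liver calls stood without any 1 of their own arrays. The brain call was lost without any 1 of its arrays (adjusted p from 0.0664 to 0.142, limma). It was also lost when fitted on the brain arrays alone (adjusted p = 0.0584, limma).

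C2, the protease that joins C4b in that convertase, was higher mainly in kidney, where it read 1.20, 1.05 and 0.64. Its mean there was 0.96 ± 0.29 (SD, n = 3, adjusted p = 0.000226, limma), a 1.95-fold higher level. The brain arrays read 0.26, 0.23 and 0.15 and the liver arrays 0.36, 0.13 and 0.42, all below the lowest kidney value. The ratio was lower in brain than in kidney by 0.75 (adjusted p = 0.0312) and lower in liver than in kidney by 0.66 (adjusted p = 0.0190), and both differences were lost without kidney replicate 1 or 2. The first was also lost without brain replicate 1 or 2 and the second without liver replicate 2. C2 and Cfb are direct neighbours in the mouse gene order, with 5 genes between Cfb and C4b. Cfb, the matching protease of the alternative pathway, was called in no tissue, with brain, kidney and liver means of 0.20 ± 0.12, 0.34 ± 0.25 (adjusted p = 0.0534) and -0.05 ± 0.22.

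The 3 chains of C1q, encoded by neighbouring genes, did not give 1 common ratio. C1qa, the A chain, read -0.40, -0.16 and -1.75 on the brain arrays, so its mean of -0.77 ± 0.85 (SD, n = 3, adjusted p = 0.0463, limma) leaned on replicate 3. Without that array the mean was -0.28 (adjusted p = 0.138), and the call was also lost without replicate 1 (-0.95, adjusted p = 0.0625). In kidney it read 0.00, 0.02 and 0.01, and in liver 0.08, 0.53 and 0.09, with no call. C1qb, the B chain, was called higher in kidney at 0.43 ± 0.11 (adjusted p = 0.0248) and in liver at 0.49 ± 0.12 (adjusted p = 0.0158), and was positive on 8 of 9 arrays. The kidney call was lost without any 1 kidney array and the liver call without replicate 1 or 2. C1qc, the C chain, read -0.12, -0.69 and -0.19 in brain and 0.38, 0.42 and 0.06 in liver. Neither tissue passed the test, but their difference did, at 0.62 (adjusted p = 0.0466), and it was lost without brain replicate 2 or liver replicate 1 or 2. Microglia and macrophages are the main source of C1q, and of 17 measured markers of these cells 1 was higher and 2 were lower in brain, 4 and 6 in kidney, and 2 and 3 in liver. These counts are 17.6%, 58.8% and 29.4% of the list, against 17.4%, 27.4% and 24% of named genes, so the brain share is that of the background, and it was again 17.6% without brain replicate 3, against 19.8%. The median of these markers on single arrays ran from -0.13 to 0.10 in brain, from -0.16 to 0.01 in kidney and from 0.00 to 0.09 in liver, and their part in the C1q values was not tested.

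In the lectin pathway the strain ratio of Masp2 turned between tissues, with no intensity to show that brain or kidney read above background. Masp2, the protease that cleaves C4 and C2 in this pathway, read 0.25, 0.43 and 0.81 in brain and 0.36, 0.30 and 0.69 in kidney. The liver arrays read -0.34, -0.62 and -0.24, so neither other tissue overlapped liver. The means were 0.50 ± 0.28 (adjusted p = 0.0208, limma), 0.45 ± 0.21 (adjusted p = 0.0238) and -0.40 ± 0.20 (SD, n = 3, adjusted p = 0.0422). The liver ratio was lower than the kidney ratio by 0.85 (adjusted p = 0.0110, limma), a difference that stood without any 1 liver or kidney array. It was lower than the brain ratio by 0.90 (adjusted p = 0.0141). Of the liver and brain arrays, only leaving out liver replicate 2 ended that difference (adjusted p = 0.0523). The calls within a tissue were lost in kidney and liver without any 1 of their arrays and in brain without replicate 2 or 3. Fitted on the brain arrays alone, the brain call was lost as well (adjusted p = 0.100, limma).

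Masp1, the partner protease that activates Masp2, read -0.32, -0.32 and -0.37 in kidney and 0.41, 0.22 and 0.60 in liver. Neither mean passed the test, at -0.34 ± 0.03 and 0.41 ± 0.19, while the difference of 0.74 did (adjusted p = 0.0420, limma), and it was lost without any 1 kidney or liver array. Mbl2, a mannose-binding lectin, ran the other way. It read 0.62, -0.01 and 0.24 in kidney and -0.53, -0.79 and -0.13 in liver, with a liver mean of -0.48 ± 0.33 (SD, n = 3, adjusted p = 0.0464) and a difference of -0.77 (adjusted p = 0.0373). The liver call was lost without liver replicate 1 or 2, and the difference without these or kidney replicate 1 or 3. Mbl1, the other lectin, was called in no tissue, with means from -0.24 to -0.15, and its probe lies at a multiple of 8.

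Among the remaining early regulators, Cfp and Cfi were called in 1 tissue each. Cfp, properdin, which stabilises the alternative convertase and is made by leukocytes, read 0.66, 0.47 and 0.46 in kidney, with a mean of 0.53 ± 0.11 (SD, n = 3, adjusted p = 0.00318, limma). Its brain arrays read 0.01, -0.16 and -0.34 and its liver arrays 0.07, 0.10 and -0.17, none of which reached the kidney values. The ratio was lower in brain than in kidney by 0.69 (adjusted p = 0.0263) and lower in liver than in kidney by 0.53 (adjusted p = 0.0258), and both differences were lost without any 1 kidney array, without brain replicate 2 for the first, and without liver replicate 1 or 3 for the second. Cfi, the protease that inactivates C3b and C4b, read 2.15, 1.48 and 0.09 in brain. Its brain mean of 1.24 ± 1.05 was called (adjusted p = 0.0198), and without replicate 3 the mean was 1.81 (adjusted p = 0.000876), whereas the call was lost without replicate 1 (0.78, adjusted p = 0.125) or 2 (1.12, adjusted p = 0.111). Kidney, at 0.27, 1.24 and 0.71, and liver, at 0.48, 0.05 and 0.14, were not called, and all 9 arrays were above 0. No difference of Cfi between tissues was called (adjusted p from 0.173 to 0.517, limma). On the brain arrays alone its brain call was lost (adjusted p = 0.110, limma).

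The terminal components, which form the membrane pore, were called lower in the SJL/J liver for 3 of the 5 measured, against 14.1% of named genes. The 3 are C6, C8g and C8b, and the last was read at a multiple of 8, where 31.1% of genes were called lower in liver. C6, which binds C5b as the pore begins, read -0.71, -0.78 and -0.73 in liver and -0.17, 0.53 and 0.54 in kidney, with no overlap. The liver mean was -0.74 ± 0.03 (SD, n = 3, adjusted p = 0.0148, limma), a level 1.67-fold lower in SJL/J, and the ratio was lower in liver than in kidney by 1.04 (adjusted p = 0.0212). Without any 1 liver array the liver call was lost (adjusted p from 0.0646 to 0.0701), although the mean stayed between -0.75 and -0.72, and the difference was lost without any 1 liver array or kidney replicate 2 or 3. In brain C6 read -0.17, -1.08 and -0.24 and was not called.

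C8g, the gamma chain of C8 and a member of the lipocalin family, was higher in the SJL/J kidney and lower in the SJL/J liver. It read 0.57, 0.61 and 0.64 in kidney and -0.66, -0.37 and -0.25 in liver. The kidney mean was 0.61 ± 0.03 (SD, n = 3, adjusted p = 0.00236, limma), the liver mean -0.43 ± 0.21 (adjusted p = 0.0157), and the difference -1.04 (adjusted p = 0.00200). The kidney call and this difference stood without any 1 array of the tissues tested. The liver call was lost without liver replicate 1 or 2. The brain arrays read 0.07, 0.17 and 0.48 with no call, and the liver ratio was below the brain ratio by 0.67 (adjusted p = 0.0231), lost without brain replicate 2 or liver replicate 1 or 2.

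Of the other terminal components, C8b, the beta chain, was called lower in kidney (-0.50 ± 0.05, adjusted p = 0.00303, limma) and in liver (-0.46 ± 0.19, adjusted p = 0.00496). Its probe lies at a multiple of 8, where 39.8% of the 1689 such genes were lower still in kidney and 24.9% in liver. After removal of line and column medians, both calls were lost (0.14 in kidney, -0.19 in liver). C9, which polymerises into the pore, also read at such a probe, had means of -0.18 in brain and -0.12 in kidney with no call and was called higher in liver at 0.30 ± 0.17 (adjusted p = 0.0362), a call lost without liver replicate 1 or 3. Hc, which encodes C5, was called in no tissue, with brain, kidney and liver means of 0.26, -0.21 and -0.19.

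The anaphylatoxin receptors were lower in SJL/J in brain and kidney and were not called in liver. C3ar1, the receptor for C3a on myeloid cells, read -1.54, -1.44 and -1.01 in brain, -1.36, -1.62 and -2.11 in kidney and 0.28, 0.24 and 0.11 in liver. No brain or kidney value came near the liver values. The brain mean was -1.33 ± 0.29 (SD, n = 3, adjusted p = 0.000227, limma), a level 2.52-fold lower, and the kidney mean -1.69 ± 0.38 (adjusted p = 3.77e-05), 3.24-fold lower. In liver the mean was 0.21 ± 0.09 (adjusted p = 0.316). The liver ratio was above the kidney ratio by 1.90 (adjusted p = 0.000403, limma) and above the brain ratio by 1.54 (adjusted p = 0.00170). The brain and kidney calls and both differences stood without any 1 array of the tissues tested. The macrophage and microglia markers given beside C1q had brain, kidney and liver medians of -0.12, -0.07 and 0.04, and their part in the receptor ratios was not tested.

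C5ar1, the receptor for C5a on neutrophils and macrophages, read -0.56, -0.27 and -0.73 in brain, -0.62, -0.91 and -0.83 in kidney and -0.23, -0.30 and -0.16 in liver. The means were -0.52 ± 0.23 (adjusted p = 0.00683, limma), -0.79 ± 0.15 (adjusted p = 0.000447) and -0.23 ± 0.07 (SD, n = 3, adjusted p = 0.130). Kidney differed from liver by 0.56 (adjusted p = 0.0267), a difference lost without any 1 liver array and without kidney replicate 2 or 3. Both receptors were read at multiples of 8. Among the 1689 genes read there, 5.03% in brain and 4.68% in kidney had a lower mean than C3ar1, against 20.7% and 20.8% for C5ar1, so C5ar1 lay nearer to the other genes read there. The kidney mean of C3ar1 fell in the bin from -1.75 to -1.5, with 37 of the 1689 genes and 4 of the 13407 other named genes. Its brain bin, from -1.5 to -1.25, held 36 and 17. After removal of line and column medians C3ar1 was -1.00 in brain and -1.22 in kidney, still called. C5ar1 then lost its brain call (-0.27, adjusted p = 0.169) and kept its kidney call (-0.44, adjusted p = 0.0330). Fitted on the brain arrays alone, C5ar1 lost its brain call too (adjusted p = 0.0765, limma). Removing medians does not take out a low tail of single probes, and the part of probe position in these ratios was not tested.

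**Figure D2:**
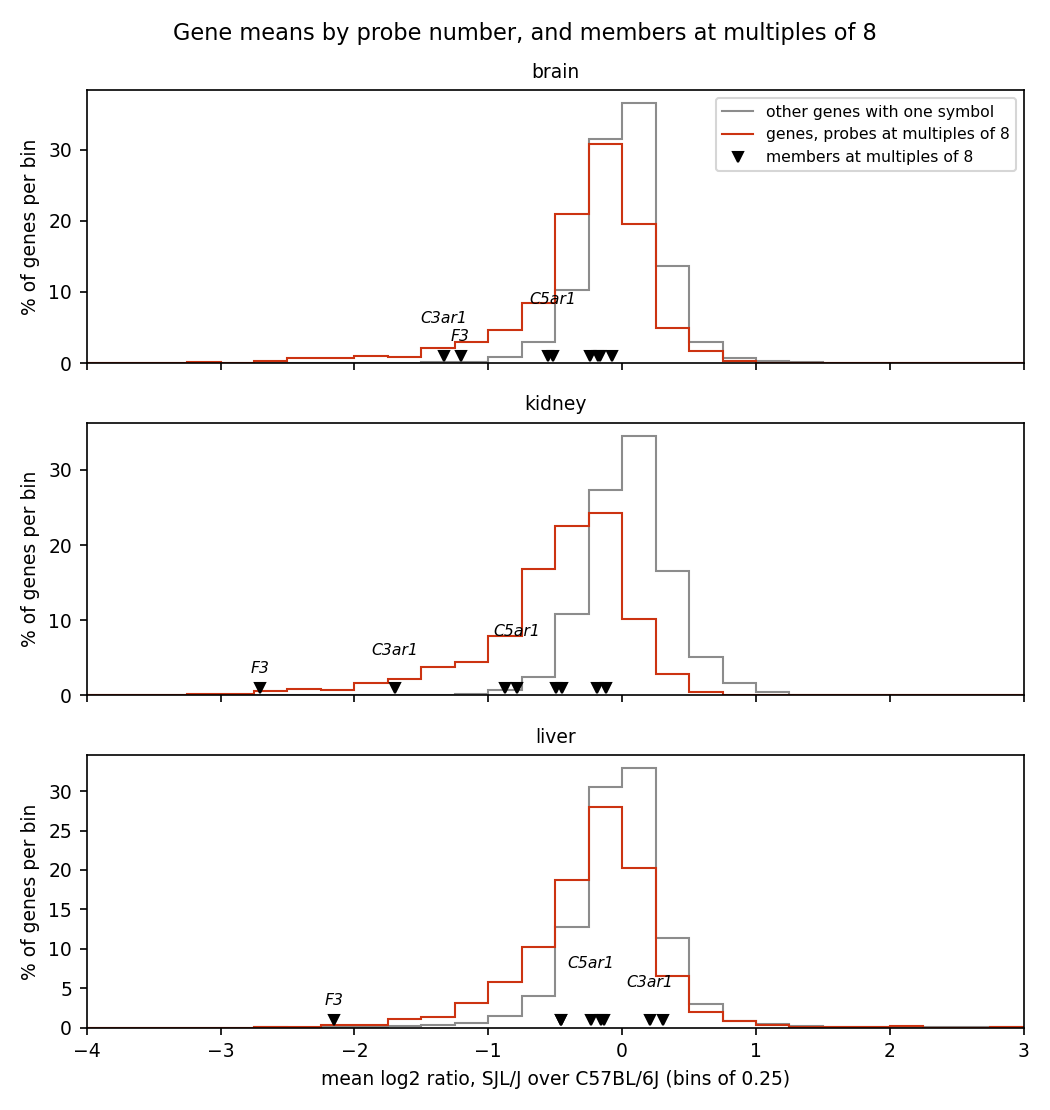
Percentage of named genes in bins of mean log2 ratio, SJL/J over C57BL/6J, in 1 panel per tissue, for the 1689 genes read only at multiples of 8 and for the other named genes, with the means of the 8 complement and coagulation genes read there marked. In kidney the median of the genes at multiples of 8 was -0.39 against 0.06 for the others, and F3 and C3ar1 lie in the low tail of the genes at multiples of 8.

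**Figure D3:**
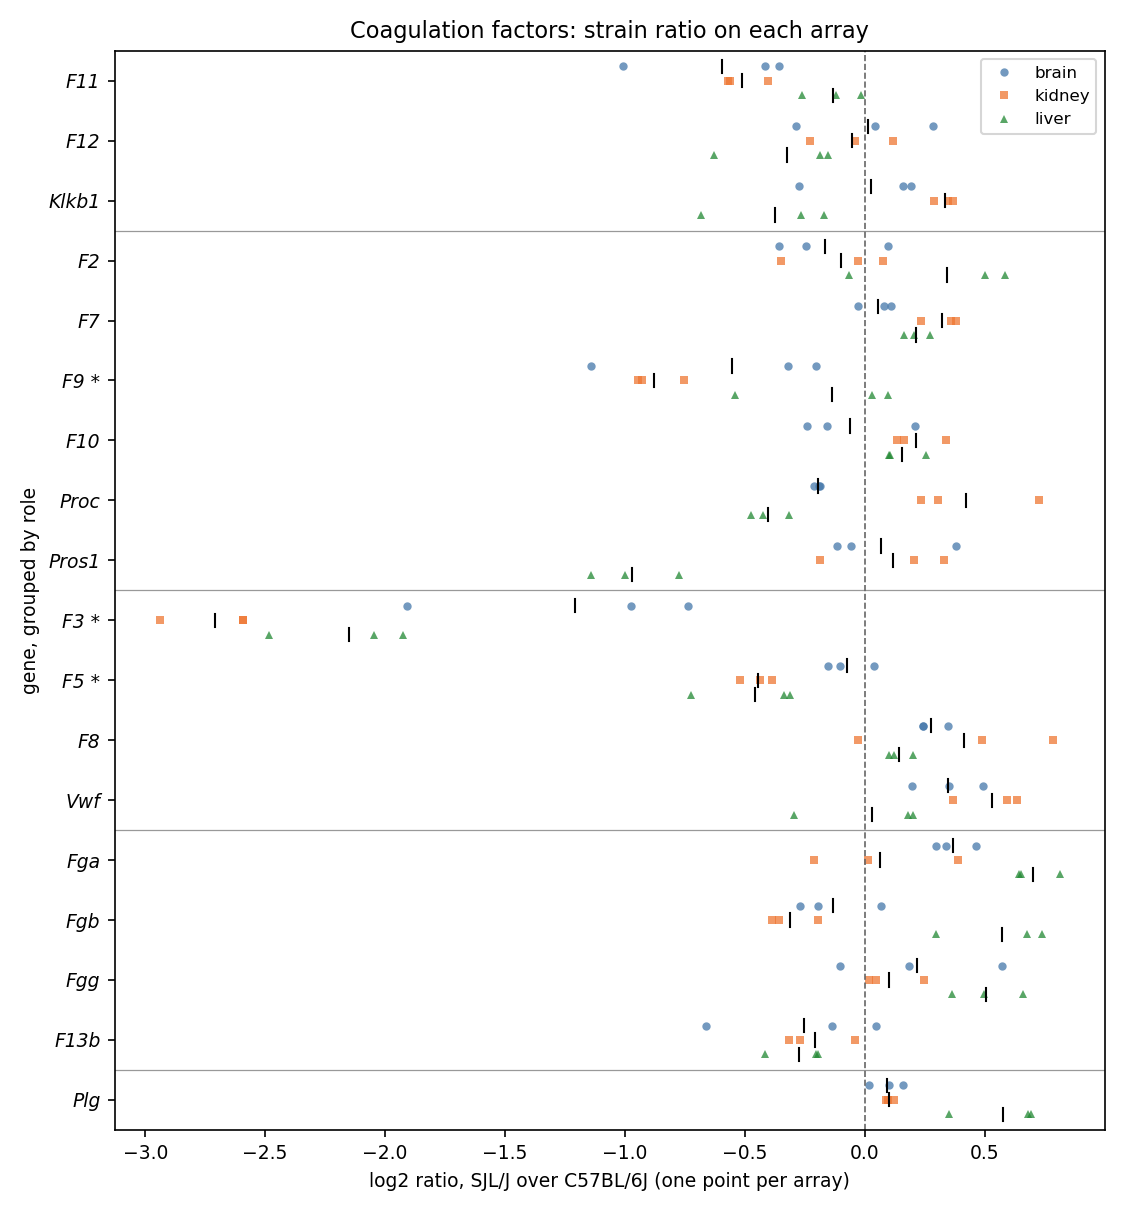
Log2 ratio, SJL/J over C57BL/6J, of the 18 measured coagulation genes on each of the 9 arrays, with 1 row per gene, grouped by role; circles, squares and triangles are single brain, kidney and liver arrays, black ticks the mean of 3, and an asterisk marks a probe whose number is a multiple of 8. F3 is the lowest gene in each tissue, and the fibrinogen genes and Plg lie right of 0 on the liver arrays.

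Among the coagulation genes F3 had the largest strain difference in every tissue. F3, tissue factor, the membrane receptor that starts clotting by binding factor VII, read -1.91, -0.98 and -0.74 in brain, -2.59, -2.94 and -2.59 in kidney and -1.93, -2.48 and -2.05 in liver. All 9 arrays were below 0, and the kidney arrays were below every other array. The mean was -1.21 ± 0.62 in brain (SD, n = 3, adjusted p = 0.00255, limma), -2.71 ± 0.20 in kidney (adjusted p = 1.73e-05) and -2.15 ± 0.29 in liver (adjusted p = 6.21e-05). These are levels 2.31-fold, 6.53-fold and 4.44-fold lower in SJL/J.

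The F3 probe lies at a multiple of 8. In kidney 12 of the 1689 genes read there (0.71%) and in liver 5 (0.296%) had a lower mean, against 6.39% in brain. The kidney mean of F3 fell in the bin from -2.75 to -2.5, with 9 of these 1689 genes and 0 of the 13407 other named genes. Its liver bin, from -2.25 to -2, held 7 and 9, and its brain bin, from -1.25 to -1, held 49 and 29. After removal of line and column medians the means were -0.96, -2.40 and -1.87, all called. Before that removal each call stood without any 1 array of its tissue. Removing medians does not take out a low tail of single probes, and the part of probe position in the F3 ratios was not tested. The ratio was higher in brain than in kidney by 1.50 (adjusted p = 0.0214, limma). That difference was lost without brain replicate 2 or any 1 kidney array.

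Factor F7, which tissue factor binds, was called higher in kidney by a small margin (0.32 ± 0.08, SD, n = 3, adjusted p = 0.0123, limma) and lay above 0 on 8 of 9 arrays. The call was lost without kidney replicate 1 or 2. F10, the factor X gene beside it in the genome, was called nowhere, with brain, kidney and liver means of -0.06, 0.21 and 0.15. F2, prothrombin, was called nowhere as well, with 0.34 ± 0.35 in liver.

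F9, factor IX of the intrinsic pathway, read -1.14, -0.32 and -0.20 in brain, -0.76, -0.95 and -0.93 in kidney and -0.54, 0.03 and 0.10 in liver. The kidney mean of -0.88 ± 0.11 (SD, n = 3, adjusted p = 0.00510, limma) was called, while brain (-0.56 ± 0.51, adjusted p = 0.0502) and liver (-0.14 ± 0.35) were not. Its probe too lies at a multiple of 8, and 18.2% of the 1689 genes there had a lower mean in kidney. After removal of line and column medians the kidney mean was -0.51 (adjusted p = 0.0388).

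Pros1 and Proc, which act together to shut clotting down, were both lower in the SJL/J liver. Pros1, protein S, the cofactor of activated protein C, read -1.00, -1.14 and -0.77 in liver, -0.11, -0.06 and 0.38 in brain and 0.20, -0.19 and 0.33 in kidney. The liver arrays overlapped neither other tissue. The liver mean was -0.97 ± 0.18 (SD, n = 3, adjusted p = 0.000598, limma), a level 1.96-fold lower, and it lay below kidney by 1.09 (adjusted p = 0.00407) and below brain by 1.04 (adjusted p = 0.00840). Each of these calls stood without any 1 array of the tissues tested and after removal of line and column medians.

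Proc, protein C itself, the protease that inactivates factors V and VIII, read -0.32, -0.47 and -0.43 in liver, -0.19, -0.21 and -0.19 in brain and 0.30, 0.23 and 0.73 in kidney. Its mean was lower in liver (-0.41 ± 0.08, SD, n = 3, adjusted p = 0.0159, limma) and higher in kidney (0.42 ± 0.27, adjusted p = 0.0119), with a difference of -0.83 (adjusted p = 0.00451). That difference stood without any 1 liver or kidney array. After removal of line and column medians it was -0.35 (adjusted p = 0.130, limma), and the calls in kidney (0.16) and liver (-0.19) were lost too. Those calls were lost as well without kidney replicate 3 and without liver replicate 2 or 3. The brain ratio was below the kidney ratio by 0.62 (adjusted p = 0.0399), lost without brain replicate 1 or 2 or any 1 kidney array.

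Of the contact factors, which start clotting on charged surfaces, 1 gene was called lower in brain and kidney. F11, factor XI, read -0.42, -1.01 and -0.36 in brain and -0.41, -0.57 and -0.56 in kidney. The means of -0.59 ± 0.36 (SD, n = 3, adjusted p = 0.00861, limma) and -0.51 ± 0.09 (adjusted p = 0.0121) were both called. The kidney call was lost without kidney replicate 2 or 3. Fitted on the brain arrays alone, the brain call was lost (adjusted p = 0.0891, limma). In liver it read -0.26, -0.12 and -0.02 and was not called. All 9 arrays were below 0, and no difference of F11 between tissues was called (adjusted p from 0.124 to 0.809, limma). Klkb1, plasma prekallikrein, the neighbouring gene, read 0.29, 0.37 and 0.35 in kidney and -0.27, -0.68 and -0.17 in liver. Its liver mean was -0.37 ± 0.27 (adjusted p = 0.0461) and the difference from kidney -0.71 (adjusted p = 0.0196), and the liver call was lost without any 1 liver array, the difference without any 1 kidney array or liver replicate 2. F12, factor XII, was called nowhere, with -0.32 ± 0.27 in liver.

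Vwf, von Willebrand factor, which tethers platelets and carries factor VIII, was higher in kidney, where the average of its 2 probes read 0.59, 0.37 and 0.63. The mean was 0.53 ± 0.14 (SD, n = 3, adjusted p = 0.00720, limma), lost without kidney replicate 3 (adjusted p = 0.0523). The probes differed in size: 1 gave 0.74 in kidney and 0.59 in brain and was called in both when probes were fitted one by one, whereas the other gave 0.32 and 0.10 and was called in neither. In brain the gene read 0.35, 0.20 and 0.49 and in liver -0.29, 0.20 and 0.18, with no call. Of 13 measured endothelial markers 1 was higher and 0 lower in kidney, where the median on single arrays ran from 0.06 to 0.18. That is 7.69% of the list against 27.4% of named genes, a share below the background, and the part of endothelium in the Vwf ratio was not tested.

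F8, factor VIII, was called higher in kidney at 0.41 ± 0.41 (SD, n = 3, adjusted p = 0.0362, limma), a call lost without kidney replicate 1 or 3. F5, factor V, was called lower in kidney (-0.45 ± 0.07, adjusted p = 0.00774) and liver (-0.46 ± 0.23, adjusted p = 0.00765). Its probe lies at a multiple of 8, and after removal of line and column medians its means were -0.09 and -0.10 with no call. Each call was also lost without replicate 3 of its tissue (adjusted p = 0.0532 and 0.0638).

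The genes of fibrinogen, the soluble precursor of the clot, were higher together in the SJL/J liver. Fga, the alpha chain, read 0.65, 0.64 and 0.81 in liver, Fgb, the beta chain, 0.74, 0.30 and 0.68, and Fgg, the gamma chain, 0.36, 0.66 and 0.50. All 9 of these readings were above 0. The means were 0.70 ± 0.10 for Fga (SD, n = 3, adjusted p = 0.00155, limma), 0.57 ± 0.24 for Fgb (adjusted p = 0.00411) and 0.51 ± 0.15 for Fgg (adjusted p = 0.0140), that is 1.63-fold, 1.48-fold and 1.42-fold higher levels. The calls for Fga and Fgb stood without any 1 liver array, and that for Fgg was lost without liver replicate 2 or 3.

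Outside liver the chains did not move together. In kidney Fga read 0.01, -0.21 and 0.39, Fgb -0.39, -0.36 and -0.19, and Fgg 0.05, 0.02 and 0.24, and none was called. In brain Fga read 0.47, 0.30 and 0.34 and was called at 0.37 ± 0.09 (adjusted p = 0.0422, limma), lost without any 1 brain array, while Fgb (-0.27, 0.07 and -0.20) and Fgg (-0.10, 0.18 and 0.57) were not called. The liver ratio exceeded the kidney ratio by 0.64 for Fga (adjusted p = 0.0210) and by 0.88 for Fgb (adjusted p = 0.00451), and the Fgb ratio exceeded that of brain by 0.70 (adjusted p = 0.0200). The Fga difference was lost without kidney or liver replicate 1, kidney replicate 2 or liver replicate 3, and the second Fgb difference without liver replicate 1 or 3. For Fgg no difference was called.

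The fibrinogen genes lie side by side in the order Fgg, Fga and Fgb, with no other protein-coding gene between them in assembly GRCm38.p6. Their promoters are shown because the chains were called together in liver and are known to be switched on together in the acute phase. Each line gives the 250 bases before the start of transcription, 5′ to 3′ on the gene's strand, from RefSeq on GRCm38.p6, at chr3:83025903-83026152 (plus strand) for Fga, chr3:83049864-83050113 (minus strand) for Fgb and chr3:83007474-83007723 (plus strand) for Fgg. The capitals mark matches, on either strand, to TTCNNNGAA (the palindrome bound by STAT factors), CTGGGA (the core of the IL-6 response element), TTNNGCAA (part of the C/EBP site) and GTTAAT (part of the HNF1 site).
Fga: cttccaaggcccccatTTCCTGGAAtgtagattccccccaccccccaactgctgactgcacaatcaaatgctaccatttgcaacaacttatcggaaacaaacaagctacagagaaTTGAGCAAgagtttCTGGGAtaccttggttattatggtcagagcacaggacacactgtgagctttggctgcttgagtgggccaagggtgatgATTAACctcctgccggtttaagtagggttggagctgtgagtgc
Fgb: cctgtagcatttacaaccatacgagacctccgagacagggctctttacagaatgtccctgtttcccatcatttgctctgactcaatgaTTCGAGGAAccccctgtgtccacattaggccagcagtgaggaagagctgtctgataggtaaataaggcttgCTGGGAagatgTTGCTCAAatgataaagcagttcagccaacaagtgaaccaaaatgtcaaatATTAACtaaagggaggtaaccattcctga
Fgg: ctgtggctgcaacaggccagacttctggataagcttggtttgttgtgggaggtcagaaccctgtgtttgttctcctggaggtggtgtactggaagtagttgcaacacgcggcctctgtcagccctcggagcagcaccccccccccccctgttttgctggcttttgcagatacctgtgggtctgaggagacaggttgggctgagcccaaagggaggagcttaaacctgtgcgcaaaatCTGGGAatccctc
Fga and Fgb each held 1 match to each of the 4 motifs, and Fgg held 1, to CTGGGA. Of 32851 RefSeq promoters of this length 7.02% held TTCNNNGAA, 27% CTGGGA, 9.56% TTNNGCAA and 6.43% GTTAAT. Of the 28 measured factors with a RefSeq promoter, Fga, Fgb and Fgg among them, 5, 9, 6 and 6 held them. A factor was counted if any of its promoters matched, whereas the shares above count single promoters, so they are unlike measures. A match describes letters in a window and is neither a shown binding site nor a cause of the ratios.

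Plg, plasminogen, the precursor of the enzyme that dissolves fibrin, was higher in the SJL/J liver as well. It read 0.35, 0.68 and 0.69 there, above all brain arrays (0.16, 0.02 and 0.10) and kidney arrays (0.09, 0.12 and 0.10). The liver mean was 0.57 ± 0.19 (SD, n = 3, adjusted p = 0.00137, limma), 1.49-fold higher, and stood without any 1 liver array. It exceeded brain by 0.48 (adjusted p = 0.0401) and kidney by 0.47 (adjusted p = 0.0282), both lost without liver replicate 2 or 3 or any 1 array of the other tissue. F13b, the carrier subunit of the enzyme that crosslinks fibrin, was called nowhere, with means from -0.27 to -0.21.

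Markers of the cells that make these proteins were counted in the same liver arrays. Of 20 measured hepatocyte markers 8 were higher and 4 lower in liver, with medians on single arrays from 0.10 to 0.53, which is 60% of the list against 24% of named genes. Of 21 measured genes of the acute phase response, the liver's secretory answer to inflammation, 18 were higher and 0 lower, with array medians from 0.73 to 0.96, or 85.7% of the list against 9.98% of named genes called higher. In brain and kidney the acute phase medians ran from 0.05 to 0.09 and from -0.02 to 0.07. The part of either list in the fibrinogen, plasminogen and C4b ratios, or in those of the factors called lower in liver, was not tested.

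**Figure D4:**
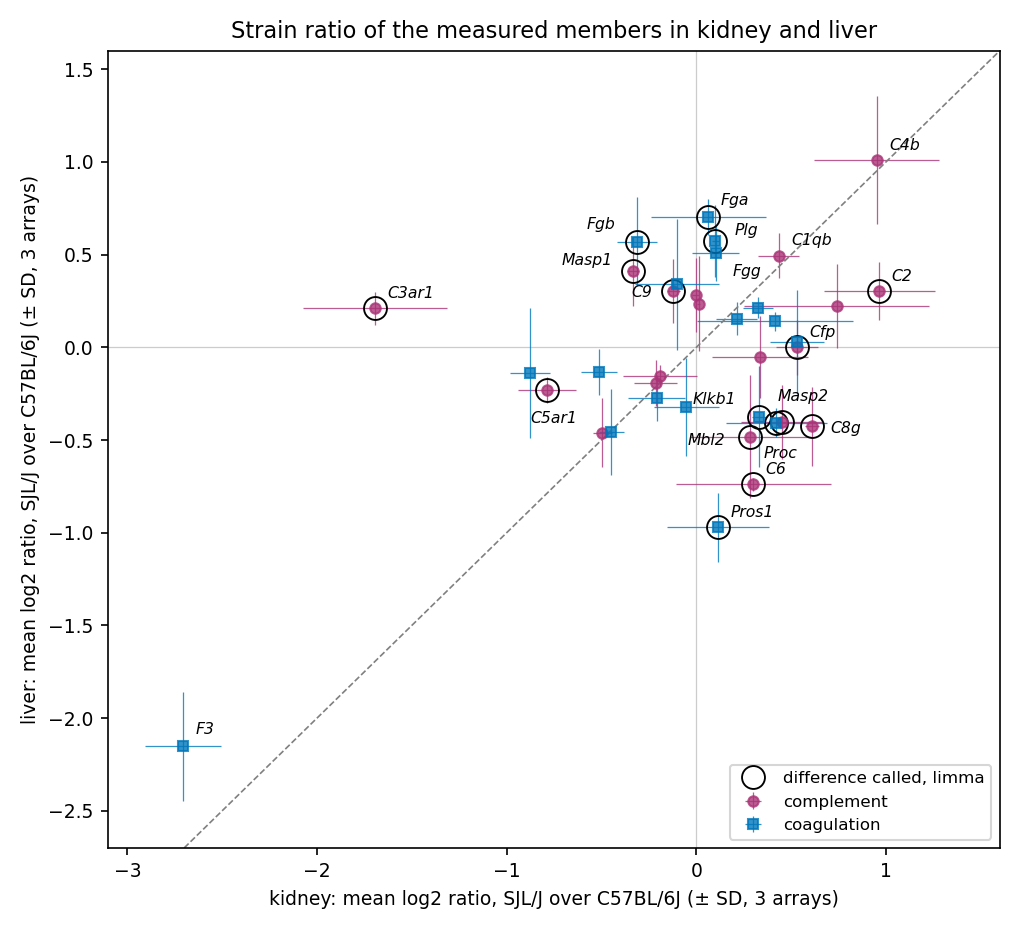
Mean log2 ratio, SJL/J over C57BL/6J, of each of the 37 measured genes in kidney (horizontal) and liver (vertical), with bars for the SD over 3 arrays, a dashed line where both tissues are equal, and open rings for genes whose ratio differed between these tissues by limma. The fibrinogen genes and Plg lie above the line, Pros1, C6, C8g and Masp2 below it, C3ar1 far to the left near 0 in liver, and F3 low in both.

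The strain ratios were also compared between tissues, where each tissue's arrays enter 2 of the 3 comparisons. Between liver and kidney 10 of 19 complement genes differed (4 with a higher and 6 with a lower ratio in liver) and 6 of 18 coagulation genes (3 and 3), against 18.5% of all named genes (8.18% higher and 10.3% lower). Between liver and brain 5 complement genes (3 and 2) and 3 coagulation genes (2 and 1) differed, against 9.78% (4.82% and 4.97%). Between brain and kidney 2 complement genes (0 and 2) and 2 coagulation genes (1 and 1) differed, against 4.82% (2.23% and 2.59%). With 1 array left out the liver to kidney counts fell to between 4 and 5 for complement and to between 3 and 6 for coagulation, those of liver to brain to between 2 and 5 and between 1 and 3, and those of brain to kidney ranged from 0 to 4 and from 0 to 2. The F-test over the tissues called 7 complement and 7 coagulation genes, against 20.1% of named genes, and without brain replicate 3 it called 11 and 7.

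Of the 10 complement genes that differed between liver and kidney, Masp1, C9, C3ar1 and C5ar1 had the higher ratio in liver, and C2, Mbl2, Masp2, Cfp, C6 and C8g the lower. Of the coagulation genes Fga, Fgb and Plg had the higher ratio in liver and Klkb1, Proc and Pros1 the lower. The first group holds 3 genes read at multiples of 8, where 25.1% of the 1689 genes had a higher ratio in liver than in kidney. The second holds none.

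Removal of line and column medians ended 16 of the 43 calls within tissues and 11 of the 28 differences. In brain these calls were of C1qa, C4b, C5ar1 and Fga, in kidney of C1qb, C8b, F5, F7, F8 and Proc, and in liver of C8b, F5, Klkb1, Masp2, Mbl2 and Proc. The differences were those of C2 and Cfp (liver and brain against kidney), C9 (liver against both), Proc (liver and brain against kidney), and Mbl2, Masp1 and C5ar1 (liver against kidney).

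Regulators and receptors around the cascades, from lists set beside the factors, were counted in the same way. Of 17 measured complement regulators and receptors 0 were higher and 3 lower in brain, 3 and 3 in kidney, and 1 and 1 in liver. As shares these are 17.6%, 35.3% and 11.8%, against 17.4%, 27.4% and 24% of named genes. The brain share is thus that of the background and the liver share below it, so the genes named next are described singly and are no result about the list. The ratio of Cd46 was below 0 in all 3 tissues, at -0.29 ± 0.04, -0.46 ± 0.11 and -0.36 ± 0.12 (SD, n = 3, adjusted p = 0.0367, 0.00312 and 0.0111, limma). Without brain replicate 3 its brain call was lost (-0.31, adjusted p = 0.0560). Whether its probe read above background in these tissues is not known. Fcna, ficolin A, another sugar sensor of the lectin pathway, was lower in brain and kidney (-0.50 ± 0.18 and -0.58 ± 0.08, adjusted p = 0.00700 and 0.00218), and without brain replicate 3 its brain mean was -0.55 (adjusted p = 0.0117). Cd93, a surface protein of endothelium and myeloid cells once named as a C1q receptor, was higher in kidney (0.55 ± 0.24, adjusted p = 0.0173) and liver (0.46 ± 0.15, adjusted p = 0.0404). Itgb2, the beta chain of the leukocyte receptors for cleaved C3b, was lower in brain (-0.55 ± 0.45, adjusted p = 0.0198), also without replicate 3 (-0.60, adjusted p = 0.0343). Without that array 0 complement regulators were higher and 2 lower in brain. In kidney C1qbp, a protein that binds C1q, was higher (0.51 ± 0.10, adjusted p = 0.0253), as was Cr1l, a membrane inhibitor of the convertases (0.38 ± 0.16, adjusted p = 0.0148), while C4bp, a plasma inhibitor, was lower (-0.32 ± 0.17, adjusted p = 0.0437).

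Of 26 measured inhibitors, receptors and processing enzymes of coagulation and fibrinolysis 0 were higher and 1 lower in brain, 4 and 2 in kidney, and 2 and 3 in liver. These are 3.85%, 23.1% and 19.2% of the list, below the 17.4%, 27.4% and 24% of named genes in every tissue, so these counts too are no result about the list. Vkorc1, which recycles vitamin K for the carboxylation of Proc, Pros1 and the clotting factors, was lower in liver (-0.70 ± 0.15, SD, n = 3, adjusted p = 0.000736, limma). Thbd, thrombomodulin, the endothelial receptor through which thrombin activates protein C, was higher there (0.51 ± 0.17, adjusted p = 0.00983). Serpind1, heparin cofactor II, was lower in liver (-0.47 ± 0.15, adjusted p = 0.00340). Serpinc1, antithrombin, was lower in brain (-1.18 ± 0.82, adjusted p = 0.00863), the 1 brain call of this list, which stood without replicate 3 (-1.65, adjusted p = 0.000343). Tfpi2, a protease inhibitor related to the inhibitor of tissue factor, was higher in kidney (0.41 ± 0.22, adjusted p = 0.0355) and lower in liver (-0.66 ± 0.29, adjusted p = 0.00439). Ggcx, the carboxylase itself, and Gp9, a platelet receptor subunit, were lower in kidney (-0.72 ± 0.09 and -0.73 ± 0.19, adjusted p = 0.00132 and 0.000405), both from probes at multiples of 8. Serpinf2, the plasmin inhibitor, Gp1bb, a subunit of the platelet receptor for von Willebrand factor, and Plaur, the urokinase receptor, were higher in kidney at 0.50 ± 0.26, 0.48 ± 0.35 and 0.25 ± 0.05 (adjusted p = 0.00753, 0.0192 and 0.0454). Plat, tissue plasminogen activator, was higher in liver at 0.48 ± 0.04 (adjusted p = 0.00526), from a probe at a multiple of 8. The medians of the regulators were -0.01, 0.12 and 0.10 for complement and -0.05, 0.12 and 0.04 for coagulation in brain, kidney and liver.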

How the data were processed

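The deposited table held 1 log2 ratio per probe and array, made by the authors with R 2.0.0 and limma per the submitters' processing notes, 23040 probes on 9 arrays with 0 missing values. Once sorted, the 9 columns held identical values (median 0.01, range -3.91 to 5.09), so the authors had made the arrays' distributions equal; for background correction and scaling of single arrays, the method is not given in the sources used here. Intensities were not used, so no dim probe was left out, and the number of arrays limits the precision. Of the probes 16874 carried a single symbol (15096 genes), 134 several, and 6032 were unnamed here, by the platform annotation.

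Probes of a gene were averaged and every other probe kept, giving 21262 features. The 9 arrays were fitted by lmFit and eBayes of limma 3.58.1 (R 4.3.3), with 1 coefficient per tissue, 6 residual degrees of freedom, a prior of 4.06 degrees of freedom and a prior SD of 0.20. Tissue means were tested against 0 and against each other, two-sided, with Benjamini-Hochberg adjustment over all features. The fit was tested on simulated data first. Arrays were given by value for each factor called with a mean, or called in a difference between tissues, of at least 0.5 in size; the rest are given by means and counts. Medians of lines of 24 consecutive probe numbers, then of columns across them, were removed as an alternative, beside 8 others; leaving brain replicate 3 out of the marker and regulator lists was added after seeing the data. The factors, lists and rules were chosen with earlier results of these data known. Gene order and promoters come from RefSeq on GRCm38.p6.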

Additional observations from a re-analysis of the deposited data

Results flagged for a closer look

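For 18 of the factors the strain ratio differed between tissues by limma's test of the difference itself, with 1 difference given per gene (log2 units, first tissue minus second). From liver to kidney C3ar1 differed by 1.90, Fgb by 0.88, Masp1 by 0.74, Fga by 0.64 and C5ar1 by 0.56, with the higher ratio in liver. In the same comparison Pros1 differed by -1.09, C6 by -1.04, C8g by -1.04, Proc by -0.83, Mbl2 by -0.77 and Klkb1 by -0.71, with the lower ratio in liver. From liver to brain Masp2 differed by -0.90, C1qc by 0.62, C9 by 0.49 and Plg by 0.48. From brain to kidney F3 differed by 1.50, C2 by -0.75 and Cfp by -0.69. Of these genes C3ar1, C5ar1, C9 and F3 were read by probes at multiples of 8. Adjusted p-values for the 18 differences ran from 0.000403 (C3ar1) to 0.0466 (C1qc).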

How the results depend on the processing

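Of 60 called values of the genes given by array (34 means and 26 differences), 23 kept their call under every alternative run for them, 37 lost it under at least 1, and 0 reversed. Among the 23 are values of C3ar1, C5ar1, F3 and F9, whose only probe lies at a multiple of 8. Leaving out such probes could not be run for them. With medians of lines and columns removed 42 were kept, with probes at multiples of 8 left out 47 of 48, and with array weights 56. Centring arrays on named probes away from multiples of 8 kept 59, as did robust eBayes, and fitting each tissue on its own arrays kept 26 of 34. Fitting probes one by one kept 60, which is no check, since every gene but Vwf had 1 probe. For Vwf that fit took the probe with the smallest p whose sign was that of the gene's mean. With 1 array of the tissue or tissues tested left out, the call was kept in 150 of 258 fits. Fewer arrays leave fewer degrees of freedom.

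Counts of called genes moved as follows. Complement in brain (6) became 3 with multiples of 8 left out, 3 with lines and columns removed and 1 on its own arrays; coagulation in brain (3) became 1 on its own arrays. Coagulation in kidney (8) became 5 with multiples of 8 left out and 4 with lines and columns removed. For liver against kidney complement (10) became 5 with lines and columns removed. For liver against brain complement (5) became 3 with multiples of 8 left out and coagulation (3) became 5 with array weights. For brain against kidney complement (2) became 1 with lines and columns removed and 5 with array weights, and coagulation (2) became 1 with multiples of 8 left out and 1 with lines and columns removed. The F-test for complement (7) called 11 with array weights, in which brain replicate 3 had a weight of 0.34. In the fit with multiples of 8 left out, genes read only there are absent, so their calls drop out of these counts. They are C3ar1 and C5ar1 for complement in brain and F9, F3 and F5 for coagulation in kidney. For liver against brain they are C3ar1 and C9, and for brain against kidney F3. The brain call of C1qa was also lost in that fit. The cause of the other changes was not tested.

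With 1 array left out the counts ranged, for complement, from 3 to 5 in brain, 7 to 8 in kidney, 2 to 5 in liver, 4 to 5 for liver against kidney, 2 to 5 for liver against brain, 0 to 4 for brain against kidney and 4 to 11 for the F-test. For coagulation they ranged from 2 to 3, 3 to 6, 5 to 9, 3 to 6, 1 to 3, 0 to 2 and 4 to 7 in the same order.

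The replicate numbers did not pair the arrays: deviations of same-numbered arrays correlated at -0.09 to 0.06 and those of others at -0.10 to 0.12. With the replicate block 51 of the 60 values kept their call. The block gave complement 3 for liver against brain and 1 for brain against kidney, and coagulation 1 for brain against kidney and 4 for the F-test.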

Other observations

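Genes around the called clusters were looked at after the clusters' values had been seen. Around C4b, Cfb and C2, 20 of 25 other protein-coding genes within 10 genes on each side or between them were measured. In kidney, where C4b and C2 were near 1, these neighbours ran from -0.58 to 0.44 with a median of 0.11, 2 called higher and 2 lower. In liver they ran from -0.37 to 0.66, 3 higher and 1 lower, the highest being Rnf5, a ubiquitin ligase of the endoplasmic reticulum (adjusted p = 0.00291, limma). Around the fibrinogen genes 14 of 20 neighbours were measured, and in liver they ran from -1.69 to 0.09 with 0 called higher and 1 lower. That gene is Tdo2, tryptophan dioxygenase of hepatocytes (-1.69, adjusted p = 1.01e-05), which thus lay far below the fibrinogen chains in the same pools.

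Platelet markers, 10 of 12 measured, gave 0 higher and 1 lower in brain, 2 and 1 in kidney, and 1 and 0 in liver, with medians of -0.09, 0.13 and 0.00. These are 10%, 30% and 10% of the list against 17.4%, 27.4% and 24% of named genes, near or below the background in each tissue and no result about platelets. The brain call, of Selp, was lost without brain replicate 3 (-0.29, adjusted p = 0.0732, limma). Of them Gp1bb, Gp5, Gp9 and Itga2b also stand in the list of coagulation receptors.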
